A study of Mus musculus with 7 samples.

Results

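The data described here are the transcript levels of 10 genes that mark oligodendrocyte progenitor cells (OPCs), Pdgfra, Cspg4, Vcan, Neu4, Ptprz1, Cspg5, Lhfpl3, Pcdh15, C1ql1 and Sox6. They were picked by gene name from a table of 22880 genes, of which 13866 were high enough to be tested, all 10 among them. RNA was sequenced from the optic nerves of mice at P14, with both nerves of a mouse making up a sample. The 4 control mice were homozygous for a floxed allele of Fasn, the gene of fatty acid synthase, and lacked Cre. The 3 mutant (cMU) mice carried the same floxed alleles and Cre driven by Olig2 regulatory elements, which are active throughout the oligodendrocyte lineage, OPCs included. The floxed allele came from 129X1/SvJ stock later mixed with C57BL/6 and DBA, and the mice were backcrossed to a C57Bl/6 background. The Olig2-Cre allele was present in mutants only, so its own effect and that of the loss of Fasn cannot be told apart. The comparison asked whether transcripts that mark OPCs differed in level when the lineage had lost the enzyme.

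OPCs are dividing cells that spread through the nervous system during development and give rise to the oligodendrocytes (OLs) that form myelin. Their division and survival depend on platelet-derived growth factor, which they sense through the receptor encoded by Pdgfra, and their surface and surroundings are rich in chondroitin sulfate proteoglycans. On leaving the progenitor stage, cells pass through committed precursor and newly formed OL stages, and progenitor transcripts are replaced by those of myelin.

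The stretch just upstream of transcription is shown for the 3 genes that passed the test described below (Vcan, Cspg4 and Neu4) and, for contrast, for Pdgfra, which did not. Promoter windows were found in RefSeq for 8 of the 10 genes. Each stretch, on GRCm38.p6 and read 5′ to 3′ along the strand of the gene, ends before the most upstream annotated start. Capitals mark a GC box (GGGCGG), a SOX core (ACAAT) or an E-box (CAGATG), each searched on both strands, and the printed matches do not overlap. Vcan lies at chr13:89742513-89742762 (minus strand), Cspg4 at chr9:56864854-56865032 (plus), Neu4 at chr1:94020243-94020450 (plus) and Pdgfra at chr5:75152001-75152250 (plus).
Vcan: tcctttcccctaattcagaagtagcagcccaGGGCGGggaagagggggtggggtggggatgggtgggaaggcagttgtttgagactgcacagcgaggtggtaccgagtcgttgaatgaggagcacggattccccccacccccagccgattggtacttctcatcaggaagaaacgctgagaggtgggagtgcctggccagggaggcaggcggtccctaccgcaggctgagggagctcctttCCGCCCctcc
Cspg4: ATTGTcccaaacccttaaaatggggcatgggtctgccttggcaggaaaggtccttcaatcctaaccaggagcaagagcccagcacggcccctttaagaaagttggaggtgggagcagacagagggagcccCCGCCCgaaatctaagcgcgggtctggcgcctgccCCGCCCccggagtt
Neu4: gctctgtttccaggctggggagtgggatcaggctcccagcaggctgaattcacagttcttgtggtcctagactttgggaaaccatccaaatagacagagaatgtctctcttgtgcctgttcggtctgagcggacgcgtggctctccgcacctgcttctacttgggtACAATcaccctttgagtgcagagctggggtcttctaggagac
Pdgfra: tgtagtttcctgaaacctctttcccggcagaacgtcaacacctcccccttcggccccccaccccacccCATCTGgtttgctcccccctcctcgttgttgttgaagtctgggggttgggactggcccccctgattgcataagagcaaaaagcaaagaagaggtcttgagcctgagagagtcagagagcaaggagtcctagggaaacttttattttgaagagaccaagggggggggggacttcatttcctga
The stretch of Vcan held 2 GC boxes, that of Cspg4 held 2 GC boxes and 1 SOX core, that of Neu4 held 1 SOX core, and that of Pdgfra held 1 E-box. Such matches are common. Among 32851 windows of 250 bases, 32.7% held a GC box, 27.7% a SOX core and 14.4% an E-box. No motif was shared by the 3 genes that passed the test.

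The libraries held 27457813 to 43461363 reads by the totals recovered from the table. Fasn was at 169 to 228 FPKM (fragments scaled to transcript length and library size) in the control nerves and at 49.0 to 69.3 FPKM in the mutant nerves, 27.5% of control on average, and fell by 1.86 on the log2 scale (SE 0.138, adjusted p = 0.00312, limma-trend). The genotype labels therefore matched the level of the targeted gene in all 7 samples.

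Of the 10 OPC genes, 3 were lower in the mutant nerves past an adjusted p of 0.05, the proteoglycan genes Vcan and Cspg4 and the sialidase gene Neu4, and none was higher. Among all 13866 genes tested, 2.62% passed this threshold and 1.36% passed it as lower and 1.26% as higher. No member was higher by edgeR or DESeq2 either, or at an unadjusted p under 0.05. The fitted difference was below 0 for 8 of the 10, against 39.9% of all genes. All mutant values lay below all control values for 6 of the 10, against 8.26% of all genes, and all above for 0, against 12.9%. The median difference of the 10 genes was -0.32 on the scale of log2(FPKM + 0.5), and the median of all genes tested was 0.05. Differences below are on this scale unless ratios to Pdgfra, normalized counts, edgeR or DESeq2 are named, whose log2 scales differ. The genes did not move as a block, since differences ran from -0.73 for Neu4 to 0.08 for Ptprz1. In whole nerves, fewer cells of a type and less RNA per cell cannot be told apart.

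**Figure D1:**
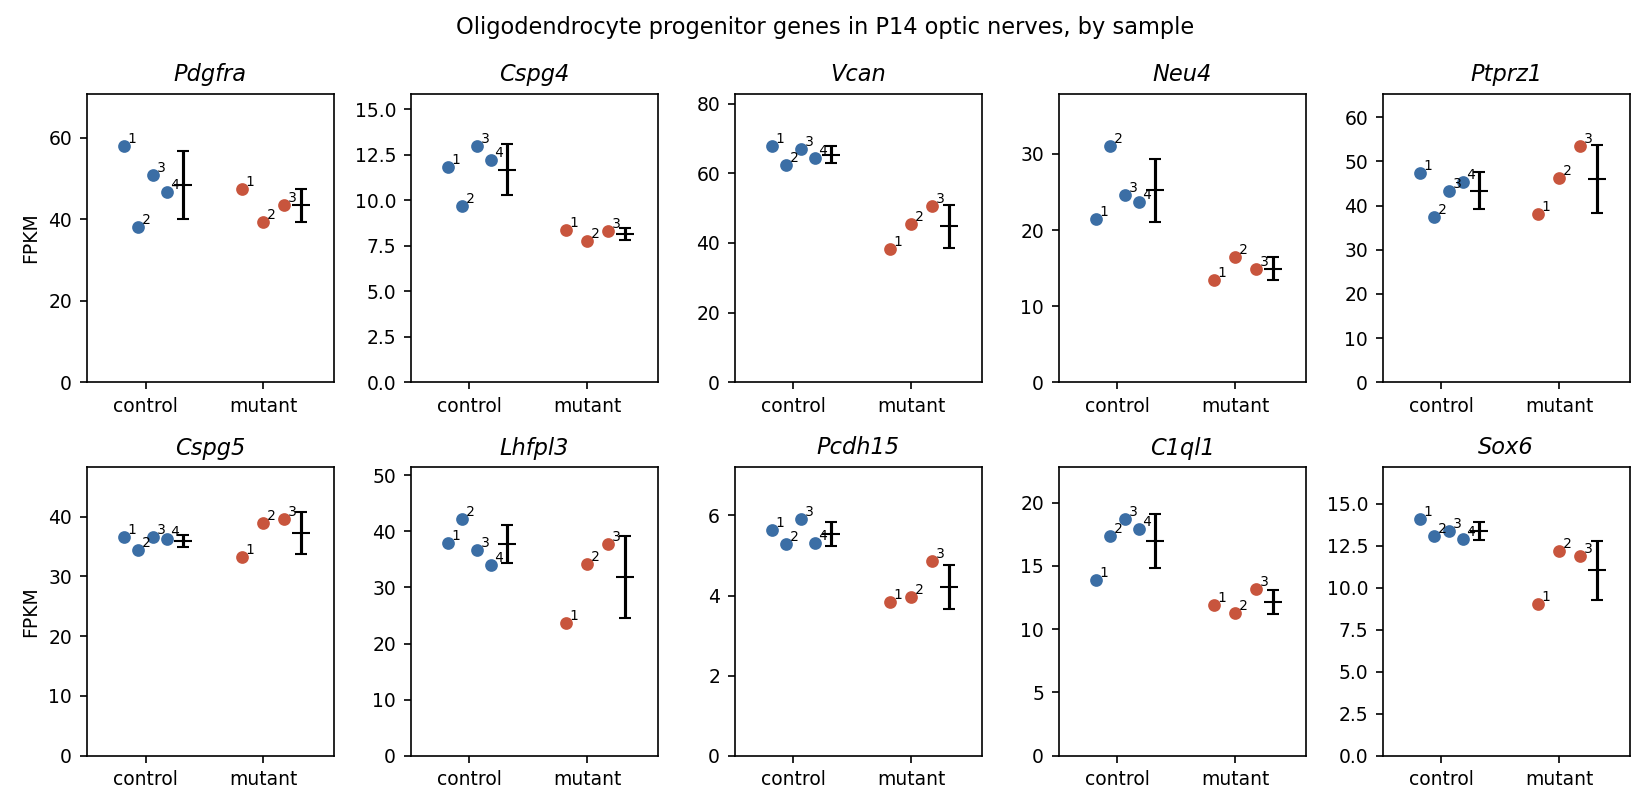
FPKM of each gene (y axis, from 0) in the 4 control and 3 mutant nerve samples; points are samples with their replicate number, and the bar beside them is the mean with the SD. The mutant points lie below all control points for Cspg4, Vcan, Neu4, Pcdh15, C1ql1 and Sox6, and the groups overlap for the other 4 genes.

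Neither receptor gene passed the test. Pdgfra (ENSMUSG00000029231, chr5:75152291-75198204, plus strand, GRCm38) encodes the receptor through which PDGF-A drives OPC division. Control samples 1 to 4 held 58.1, 38.1, 50.8 and 46.6 FPKM of it, and mutant samples 1 to 3 held 47.4, 39.3 and 43.6 FPKM. The mutant values fell inside the control range, and the mutant mean was 89.7% of control (48.4 ± 8.35 FPKM, SD, n = 4, against 43.4 ± 4.04, n = 3). The difference was -0.14 (95% interval -0.44 to 0.15, adjusted p = 0.537), so a fall of up to 0.44 or a rise of up to 0.15 lay within the interval. Ptprz1 (ENSMUSG00000068748, chr6:22875502-23052916, plus strand) encodes a receptor tyrosine phosphatase that carries chondroitin sulfate and is made by OPCs and astrocytes. Its FPKM was 47.3, 37.5, 43.4 and 45.4 in the controls and 38.2, 46.2 and 53.6 in the mutants. The groups overlapped, with mutant sample 1 near the lowest control and mutant sample 3 above every control. The difference was 0.08 (95% interval -0.19 to 0.35, adjusted p = 0.736). Its sign turned to -0.04 without mutant sample 3 and to -0.0014 on normalized counts.

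Of the proteoglycan core protein genes of the matrix and the OPC surface, Vcan and Cspg4 passed the test and Cspg5 did not, nor did Ptprz1, whose product also carries chondroitin sulfate. Vcan (ENSMUSG00000021614, chr13:89655312-89742509, minus strand) encodes versican, a large hyaluronan-binding proteoglycan of the matrix. Its FPKM was 68.0, 62.4, 67.0 and 64.3 in the controls and 38.3, 45.5 and 50.5 in the mutants. The highest mutant value was well below the lowest control value, and the mutants were more spread out (65.4 ± 2.56 against 44.8 ± 6.17 FPKM, SD). Vcan fell by 0.55 (SE 0.0908, adjusted p = 0.0265), to 68.5% of control.

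Cspg4 (ENSMUSG00000032911, chr9:56865104-56899870, plus strand) encodes the transmembrane proteoglycan NG2, a standard marker of OPCs that pericytes carry too. Its FPKM was 11.8, 9.70, 13.0 and 12.2 in the controls and 8.36, 7.78 and 8.31 in the mutants. The mutants lay close together (8.15 ± 0.319 FPKM, SD, n = 3) and below the controls (11.7 ± 1.42, n = 4). The mutant mean was 69.7% of control, a fall of 0.49 (SE 0.103) with an adjusted p of 0.0474. Genes of pericytes and smooth muscle stood the other way, with 8 of 8 above 0 by the fit and a median of 0.20. None of these passed the threshold with limma-trend, 3 had an unadjusted p under 0.05 and edgeR called 0. DESeq2 called 2 of them as higher (934 of all 13866 genes) and the replicate block 3 (890 of all genes). Their summed FPKM was 281 to 382 in the controls and 376 to 551 in the mutants, no gene of the list was at 0, and their part in the Cspg4 level was not tested.

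Cspg5 (ENSMUSG00000032482, chr9:110243783-110262576, plus strand) encodes neuroglycan C, a transmembrane proteoglycan of glia and neurons. Its FPKM was 36.6, 34.4, 36.6 and 36.2 in the controls and 33.2, 39.0 and 39.6 in the mutants. Mutant sample 1 was the lowest of the 7 samples and the other mutants were the highest, while control sample 2 stood apart from the other controls. The difference was 0.05 (95% interval -0.12 to 0.22, adjusted p = 0.728), the narrowest interval of the 10 genes, and its sign turned under other scalings (-0.03 on normalized counts, -0.00038 after TMM scaling). The mutant means of the 4 genes whose products carry chondroitin sulfate were 68.5% of control for Vcan, 69.7% for Cspg4, 104% for Cspg5 and 106% for Ptprz1, and the difference between genes was not tested.

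Neu4 (ENSMUSG00000034000, chr1:94020451-94028334, plus strand) showed the largest difference of the 10 genes. It encodes a sialidase, an enzyme that removes sialic acid from glycoproteins and glycolipids, and its transcript is also found in committed precursors. Its FPKM was 21.5, 31.1, 24.6 and 23.7 in the controls and 13.4, 16.4 and 14.9 in the mutants. Every mutant was below every control, and control sample 2 was well above the other controls. Neu4 fell by 0.73 (SE 0.124, 95% interval -1.01 to -0.45, adjusted p = 0.0276), to 59.2% of control.

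The calls for Vcan, Cspg4 and Neu4 were close to the threshold. Leaving out each of the 7 samples in turn gave adjusted p-values of 0.0343 to 0.0992 for Vcan, 0.0506 to 0.140 for Cspg4 and 0.0299 to 0.0981 for Neu4. Vcan passed in 2 of the 7 fits (without mutant sample 1 or 2), Neu4 in 1 (without mutant sample 2) and Cspg4 in 0. Differences stayed between -0.80 and -0.43 for the 3 genes. The exact permutation test of the FPKM values of each gene gave p = 0.0571 (two-sided), the smallest that 4 against 3 samples allow.

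**Figure D2:**
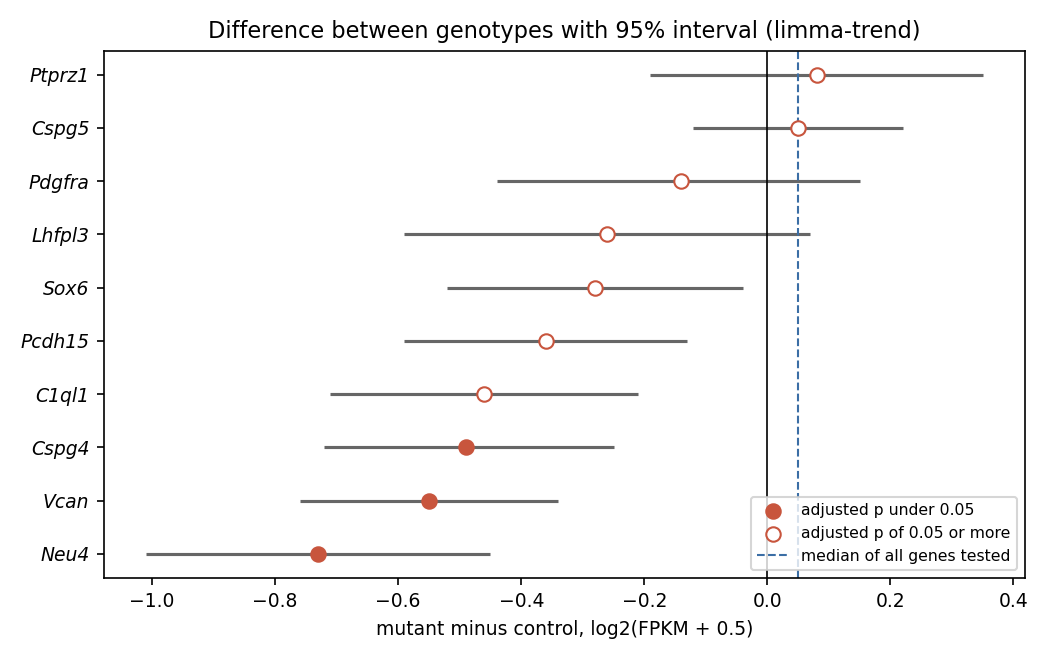
Difference between mutant and control on the log2(FPKM + 0.5) scale (x axis) for each gene (y axis), with the 95% interval; filled points passed an adjusted p of 0.05 and the dashed line is the median of all genes tested (0.05). Points run from -0.73 for Neu4 to 0.08 for Ptprz1, and the intervals of Lhfpl3, Pdgfra, Cspg5 and Ptprz1 include 0.

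C1ql1 and Pcdh15 sat just outside the threshold. C1ql1 (ENSMUSG00000045532, chr11:102939264-102946688, minus strand) encodes a secreted C1q-like protein that binds the adhesion receptor encoded by Adgrb3. Its FPKM was 13.9, 17.4, 18.7 and 17.9 in the controls and 11.9, 11.3 and 13.2 in the mutants. The groups did not overlap, with control sample 1 near the mutants. The mutant mean was 71.5% of control, with a difference of -0.46 (SE 0.109, adjusted p = 0.0612). With the replicate number as a block the difference was -0.44 and passed the threshold (adjusted p = 0.0436, with 1.94% of all genes passing as lower). It also passed without control sample 1 (-0.55, adjusted p = 0.0466). Pcdh15 (ENSMUSG00000052613, chr10:73099342-74649737, plus strand) encodes a protocadherin known from the mechanosensory apparatus of hair cells and present in OPCs. Its FPKM was 5.64, 5.28, 5.91 and 5.31 in the controls and 3.83, 3.97 and 4.85 in the mutants, the lowest level of the 10 genes. Again the groups did not overlap, and the mutant mean was 76.1% of control (difference -0.36, SE 0.102, adjusted p = 0.0892). Tests on recovered reads and on normalized counts placed both genes past the threshold, with adjusted p-values of 0.0491 (edgeR), 0.00347 (DESeq2) and 0.0452 (normalized counts) for Pcdh15 and of 0.0479, 0.00213 and 0.0438 for C1ql1. With each of these tests 5 of the 10 genes passed as lower, against 1.72%, 5.60% and 1.93% of all genes in the same order.

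Lhfpl3 (ENSMUSG00000106379, chr5:22746059-23275597, plus strand) encodes a membrane protein of the LHFPL family. Its FPKM was 38.0, 42.2, 36.7 and 34.0 in the controls and 23.7, 34.2 and 37.8 in the mutants. Only mutant sample 1 was below the control range. The difference of -0.26 (95% interval -0.59 to 0.07, adjusted p = 0.311) was -0.06 without mutant sample 1. Sox6 (ENSMUSG00000051910, chr7:115471344-116038744, minus strand) is the transcription factor among the 10, a SoxD protein that helps to hold cells in the progenitor state. Its FPKM was 14.1, 13.1, 13.4 and 12.9 in the controls and 9.04, 12.2 and 11.9 in the mutants. The groups did not overlap, although mutant samples 2 and 3 came close to the controls. The difference was -0.28 (95% interval -0.52 to -0.04) with an adjusted p of 0.154, and was -0.15 at the nearest to 0 when a sample was left out.

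The genes were ordered by their mean level in each genotype. In control nerves Vcan was highest, followed by Pdgfra, Ptprz1, Lhfpl3, Cspg5, Neu4, C1ql1, Sox6, Cspg4 and Pcdh15. FPKM is divided by 1 transcript length per gene, 3885 bases for Vcan and 6561 for Pdgfra. Forms of a gene were not separated, so the order of the genes depends on these lengths. Neighbours whose control values did not overlap were Vcan and Pdgfra, Cspg5 and Neu4, Neu4 and C1ql1, and Cspg4 and Pcdh15, and the other neighbours overlapped. In mutant nerves the order was Ptprz1, Vcan, Pdgfra, Cspg5, Lhfpl3, Neu4, C1ql1, Sox6, Cspg4 and Pcdh15. The first 5 of these each overlapped with the next of the 5, so their order is not larger than the spread, and C1ql1 and Sox6 overlapped too. Vcan was the highest of the 10 genes in all 4 controls and in 0 of 3 mutants. In mutant sample 1 the highest was Pdgfra, and in mutant samples 2 and 3 it was Ptprz1.

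Set against Pdgfra of the same sample, Vcan and Cspg4 were lower in the mutants with no overlap, 2 of the 9 ratios, and 0 were higher with no overlap. Over all 13865 tested genes other than Pdgfra, the ratio to Pdgfra was lower with no overlap for 0.512% and higher for 17.4%. The log2 ratio of Vcan to Pdgfra was 0.23, 0.71, 0.40 and 0.46 in the controls and -0.31, 0.21 and 0.21 in the mutants. In FPKM, Vcan was thus above Pdgfra in each control and below it in mutant sample 1. The log2 ratio of Cspg4 to Pdgfra was -2.30, -1.97, -1.96 and -1.93 in the controls and -2.50, -2.34 and -2.39 in the mutants. The mean differences were -0.41 for Vcan and -0.37 for Cspg4, each with an exact permutation p of 0.0571, the smallest possible, and 0.257 after adjustment over the 9 ratios. For Neu4 the ratio differed by -0.60 but the groups overlapped (exact permutation p = 0.114, adjusted p = 0.343). No ratio passed the adjustment, and for the other 6 genes the groups overlapped.

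The mutant samples did not show the same depth of change. The median of the 10 genes relative to the control mean was -0.48 in mutant sample 1, -0.36 in sample 2 and -0.17 in sample 3, against -0.06 to 0.03 in the controls. Mutant sample 1 held the lowest mutant value for 7 of the 10 genes, sample 2 for 3 and sample 3 for 0. Pdgfra and Cspg4 were exceptions, being highest among mutants in sample 1.

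Pdgfra is also made by fibroblasts of the meninges and vessels, and their genes are set beside it here. The fibroblast list (8 genes, such as Col1a1, Dcn and Lum, named here as examples after their values were seen) was above 0 by the fit for 8 of 8, with a median of 0.59. None passed the threshold with limma-trend, 4 had an unadjusted p under 0.05 and edgeR called 0. DESeq2 called 3 of the list as higher (934 of all 13866 genes) and the replicate block 5 (890 of all genes). Its summed FPKM was 2088 to 2869 in the controls and 2791 to 5457 in the mutants, and no gene of it was at 0. Relative to the control mean, the median of the list was 0.43, -0.36, -0.05 and 0.08 in controls 1 to 4 and 1.13, 0.24 and 0.36 in mutants 1 to 3. For Pdgfra the same samples gave 0.28, -0.32, 0.08 and -0.04 and then -0.02, -0.28 and -0.13. The highest and the lowest sample of the list median were those of Pdgfra within each genotype, but controls 3 and 4 stood in the opposite order. Gene by gene, 6 of 8 were highest in control 1, 8 lowest in control 2, 8 highest in mutant 1 and 4 lowest in mutant 2. The list of pericytes and smooth muscle had the same highest and lowest samples by its median (0.21, -0.17, 0.06 and -0.03 in the controls and 0.51, 0.23 and 0.28 in the mutants). Other lists shared some of these extremes. The cell cycle list was highest in control 1 (0.32) and mutant 1 (0.05) and lowest in mutant 2 (-0.17), but lowest in control 3 (-0.15). The endothelial list was highest in control 1 (0.19) and lowest in control 2 (-0.10), but highest in mutant 2 (0.32). The astrocyte and microglial lists were highest in control 4 (0.11 and 0.19). The share of all genes with these extremes was not computed. The part of fibroblast or mural RNA in the Pdgfra level was not tested.

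Ptprz1 and Cspg5 are also made by astrocytes, whose genes stood higher in the mutant nerves. All 10 of the list were above 0 by the fit, 4 passed the threshold (Aldh1l1, Slc1a2, Gja1 and Aldoc), and the median was 0.48. The summed FPKM of the list was 3274 to 3693 in the controls and 4116 to 5064 in the mutants, with no overlap and with no gene of it at 0. The part of astrocyte RNA in the levels of Ptprz1 and Cspg5 was not tested. Microglial genes had a median of 0.13 and endothelial genes one of 0.32.

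**Figure D3:**
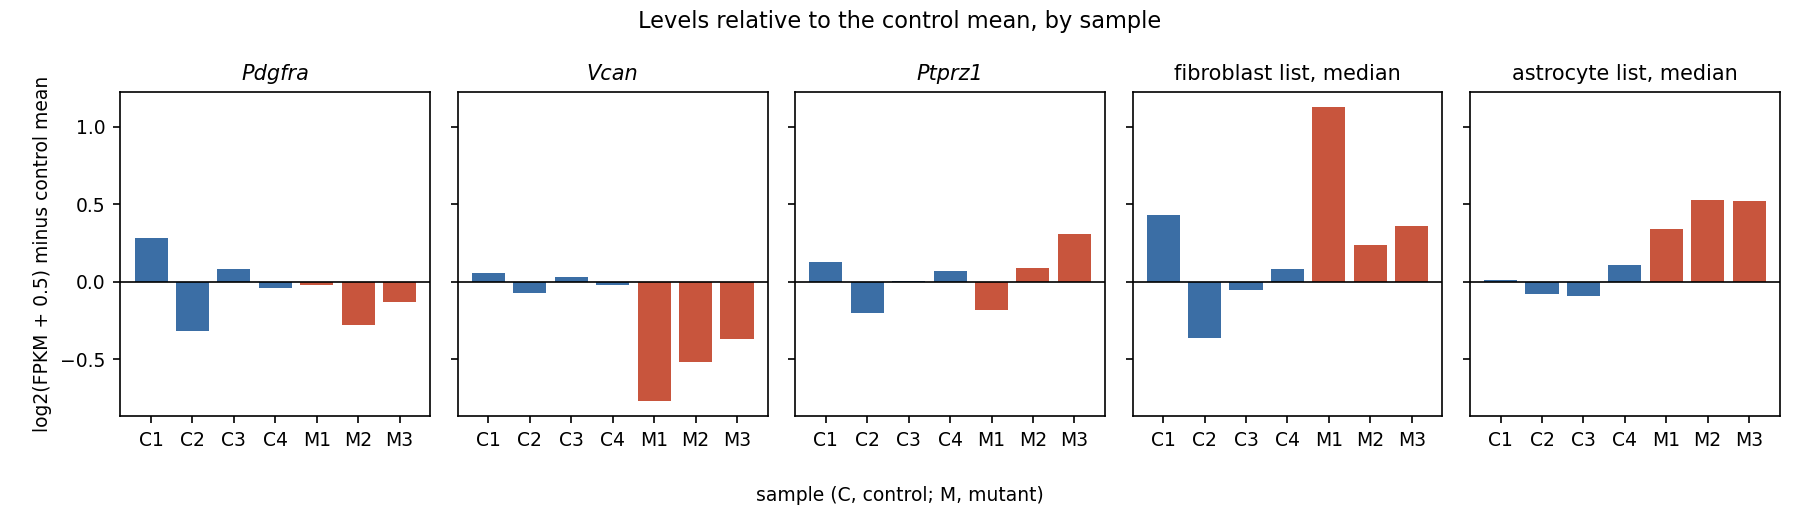
Level relative to the control mean on the log2(FPKM + 0.5) scale (y axis) in each sample (x axis, C control, M mutant) for Pdgfra, Vcan and Ptprz1 and for the median of the fibroblast and astrocyte lists. Pdgfra and the fibroblast list are both highest in control 1 and mutant 1 within their groups, while Vcan is lowest in mutant 1 (-0.77).

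Other genes of OPCs gave a smaller median difference. Of 20 further genes enriched in OPCs, 14 were below 0 and 6 above by the fit, with a median of -0.17, and 1 passed the threshold as lower. All mutant values lay below all control values for 6 of the 20, against 8.26% of all genes, and above for 1, against 12.9%. edgeR called 1 as lower and 0 as higher (238 and 162 of all 13866 genes), and DESeq2 5 and 1 (776 and 934). With the replicate block 1 passed as lower and 2 as higher, against 269 and 890 of all 13866 genes. The 2 were Ednrb (0.60, adjusted p = 0.0416 in the block fit) and Emid1 (0.56, adjusted p = 0.0326), both named after their values were seen. The gene that passed in the main limma-trend fit was Susd5, which encodes a hyaluronan-binding membrane protein. It was at 6.78 ± 0.358 FPKM (SD, n = 4) in the controls and 3.87 ± 0.722 (n = 3) in the mutants (difference -0.75, limma-trend adjusted p = 0.0247). The most abundant of the 20 in the controls, Fabp7, a fatty acid binding protein, was at 102 FPKM and 96.5 FPKM, with a spread in the mutants from 58.6 to 139 FPKM and an adjusted p of 0.760.

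The ligands and partners of the members moved in different directions. Of the 4 PDGF ligands and the other PDGF receptor, 4 of 5 genes were above 0 by the fit, with a median of 0.24. Pdgfd, which encodes a ligand that acts mainly on the other receptor, rose from 16.2 ± 1.58 to 23.4 ± 0.935 FPKM (difference 0.52, adjusted p = 0.0265). Pdgfa, the ligand of the OPC receptor and the most abundant of the 5, was at 32.5 ± 0.466 FPKM in the controls and 28.8 ± 1.12 in the mutants. Its groups did not overlap and its difference was -0.18 (adjusted p = 0.108). Among 11 tested genes of other lecticans, link proteins, tenascins and partners of Ptprz1, 6 were above 0 and 5 below, with a median of 0.04. Cntn1, the gene of contactin-1, an axonal and glial partner of Ptprz1, fell by 0.63 (118 to 76.4 FPKM, adjusted p = 0.0274). Adamts4, the gene of a protease that cleaves lecticans such as versican, fell by 0.54 (141 to 97.0 FPKM, adjusted p = 0.00846). The most abundant gene of that list in the controls, Bcan, which encodes the lectican brevican, was at 342 FPKM and 289 FPKM (adjusted p = 0.181). None of 9 tested genes of the sialidase, LHFPL and C1q-like families and of the protocadherin-15 complex passed the threshold (limma-trend), 2 had an unadjusted p under 0.05, edgeR and DESeq2 called 0, and their median was 0.09. The most abundant of these in the controls, Lhfpl2, differed by -0.0086.

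Later stages of the lineage were set beside the progenitor genes. Of 12 genes of committed precursors and newly formed OLs, 11 were below 0 by the fit, 6 passed the threshold as lower (Casr, Tmem2, Sema4f, Tmem163, Gpr17 and Rap2a) and the median was -0.46. Of 12 genes of myelinating and mature OLs, 10 were below 0, Mag and Cnp passed as lower, Klk6 passed as higher, and the median was -0.21. Of 13 transcription factor genes of the lineage, 8 were below 0 with a median of -0.31. Olig2 and Sox8 passed as lower and Id2, an inhibitor of OL differentiation, passed as higher. Olig2 regulatory elements also drive Cre, in the mutants only, and the part of the Cre allele in the Olig2 level was not tested. For 12 genes of the cell cycle the median was -0.06, with 5 above 0 and 7 below. None passed with limma-trend, 2 had an unadjusted p under 0.05, edgeR called 0 and DESeq2 1 as lower (5.60% of all genes). With the replicate block, 9 of the 12 genes of committed precursors and newly formed OLs and 0 of the 12 genes of mature OLs passed as lower. Among all genes, 1.94% did so. For the same lists in that order, edgeR called 5 and 1 genes as lower (1.72% of all genes) and DESeq2 10 and 5 (5.60%). The difference between these lists was not tested. They were chosen with earlier results of these data known, so their counts and medians describe the lists and test no stage.

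**Figure D4:**
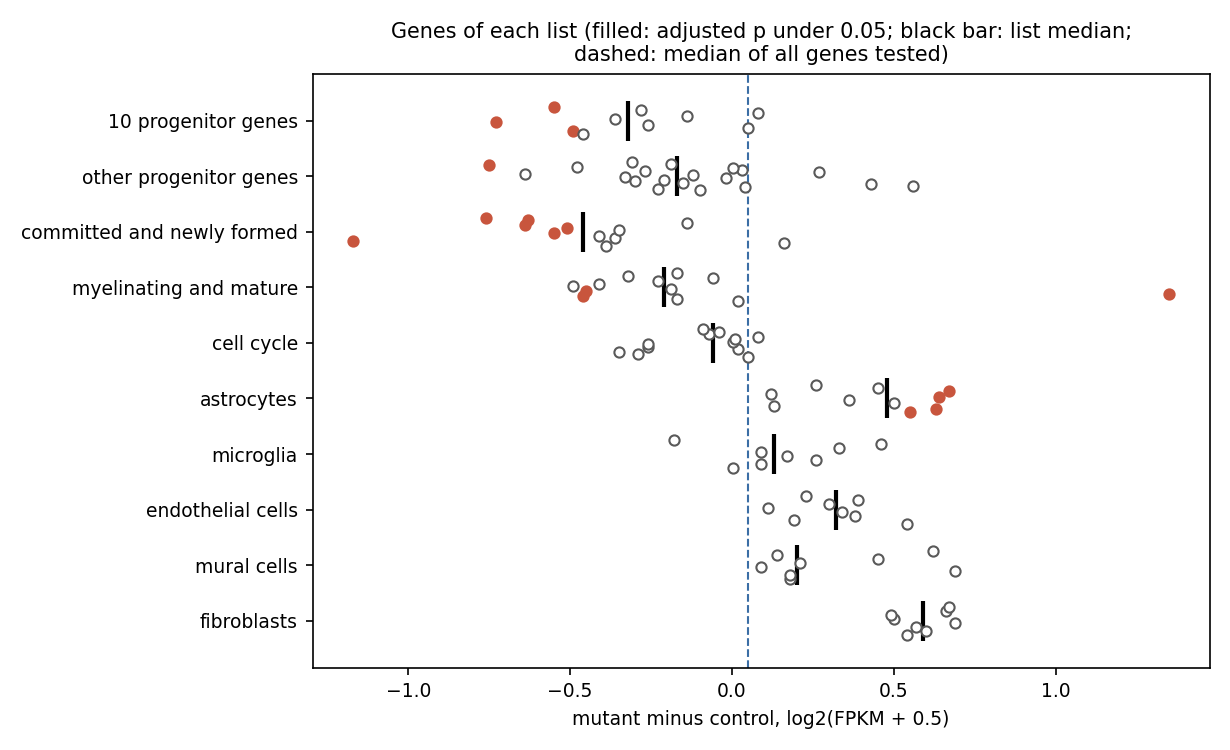
Difference between mutant and control on the log2(FPKM + 0.5) scale (x axis) for each gene of 10 lists (y axis); filled points passed an adjusted p of 0.05, black bars are list medians and the dashed line is the median of all genes tested. The median is -0.32 for the 10 progenitor genes, -0.17 for the other progenitor genes, -0.46 for committed and newly formed OLs, 0.48 for astrocytes and 0.59 for fibroblasts. The lists were chosen with earlier results of these data known.

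Some readings of these genes could be shared with other transcripts. Genes on the opposite strand touch exons of Pdgfra (Gm42802 and Gm42803), Vcan (Gm4117), Lhfpl3 (A930003O13Rik and Gm42948) and C1ql1 (Gm26668), and 6030443J06Rik (Lhfpl3) and Mir7025 (Pdgfra) do so on the same strand. Whether the counting used strand is not given in the sources used here. The values are sums over all transcripts of a gene, of which the annotation lists 41 for Pcdh15, 16 for Sox6 and 1 for C1ql1, and forms of a gene were not separated. The least covered value, that of C1ql1, rested on 517 reads.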

How the data were processed

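The samples were P14 optic nerves from 4 control and 3 mutant mice, with groups taken from the labels. The authors aligned single-end reads with STAR 2.5.1b to GRCm38 with Ensembl annotation, estimated gene levels with RSEM 1.2.22 and tested differences with edgeR. The authors deposited, for each sample, an FPKM value and a normalized count, a signal per gene scaled between samples by a method not given in the sources used here. Deposited log2 ratios, p-values and FDR values of the authors were not used.

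FPKM values were tested with limma 3.58.1 (trend) in R 4.3.3 after transformation to log2(FPKM + 0.5). Genes entered if 3 or more samples reached 0.5 FPKM. The model held genotype alone, and p-values (two-sided) were adjusted by Benjamini and Hochberg's method over 13866 genes, with a threshold of 0.05. Differences understate changes of low genes. Permutation tests used scipy 1.17.1. Reads were recovered from the spacing of the low normalized counts. Since RSEM estimates are fractional, 73.4% to 78.1% of values of 0.5 to 10 reads were whole within 0.02. Rounded reads gave the library totals, and the quasi-likelihood test of edgeR 4.0.16 called 400 genes on them. DESeq2 1.42.0 was a further alternative. The main limma fit and the edgeR and DESeq2 fits were tested on simulated data, with changes larger than those of the members. The other settings were not.

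Samples of a group differed by more than sampling noise (median chi-square per gene of 2.14 to 6.34), so each counted as 1 replicate. Replicate numbers come from the labels. Deviations from the group means correlated at 0.168, 0.409 and 0.270 for samples with the same number (other pairs -0.353 to 0.205). The value of 0.205, for control 4 and mutant 1, exceeded that of a same-numbered pair, so the correlations do not establish pairing. An alternative fit treated the numbers as pairing, with a replicate block in which control sample 4 had no partner. The block took its pairs from the replicate numbers alone, and no label states a shared litter or day.

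The members and lists were chosen with earlier results of these data known. All members are named, with the other genes of the lists that passed the threshold and, for 4 of the lists, the gene most abundant in the controls. Promoter stretches are from RefSeq (GRCm38.p6), and overlapping genes and transcripts from GENCODE annotation of GRCm38.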

Additional observations from a re-analysis of the deposited data

Results flagged for a closer look

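Among 45 named genes, 4 had 1 control sample far from the other 3 by Dixon's criterion for 4 samples (the gap divided by the range), and a criterion at the 95% level flags some groups by chance, about 1 in 20. For the member Cspg5, control sample 2 was at 34.4 FPKM, below the other controls, with a gap of 0.858 of the range. Adamts4 was low in the same sample, at 134 FPKM (0.921). Id2 was at 47.1 FPKM in control sample 1 (0.916), and Cnp was at 2580 FPKM in control sample 1 (0.842).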

How the results depend on the processing

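The threshold calls depended on the processing more than the directions did. With no filter on low values, 95 genes and 0 members passed, Cspg4 (-0.49, adjusted p = 0.0940), Vcan (-0.55, 0.0646) and Neu4 (-0.73, 0.0738, limma-trend) no longer among them. On normalized counts, with edgeR and with DESeq2, 5 members passed (all genes 370, 400 and 1710), the gains being Pcdh15 (-0.48, -0.44 and -0.44) and C1ql1 (-0.56, -0.54 and -0.53). With FPKM rescaled by TMM, C1ql1 was at -0.51 and also passed. The replicate block raised the genes past the threshold from 363 to 1159, 269 of them lower, and added C1ql1 (-0.44). It changed no other member's call. Of the calls, 188 were lower and 175 higher on FPKM, against 267 and 103 on normalized counts and 238 and 138 after TMM. Signs reversed for Ptprz1 (-0.0014 on normalized counts, -0.04 without mutant sample 3) and Cspg5 (-0.03 on normalized counts, -0.00038 after TMM), none of them past the threshold. The causes were not tested.

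Leaving out each sample in turn gave 6 to 907 genes past the threshold (6 without control sample 3 or mutant sample 3, 907 without mutant sample 2) and 0 to 2 members. The ranges were -0.57 to -0.43 for Cspg4, -0.64 to -0.44 for Vcan, -0.80 to -0.63 for Neu4, -0.04 to 0.20 for Ptprz1, and -0.55 to -0.41 for C1ql1. The median of the members stayed between -0.42 and -0.25. The 6 members that were lower in the mutants with no overlap remained so each time. That was fixed in advance, since leaving out a sample cannot make separate groups overlap, so it is no sign of stability. Without mutant sample 1, 1 further member, Cspg5, was higher with no overlap. The share of all genes in these sets was not computed. Other pseudocounts (0.1 and 1) and a minimum FPKM of 1 kept the count of members at 3. With 3 mutant mice, the spread between mice limits these comparisons, and the calls of Vcan, Cspg4, Neu4 and C1ql1 changed when single samples were left out.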
